A study of Brassica carinata with 12 samples.

Results

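Chromosome C03 is 1 of the 9 chromosomes of the C subgenome of Brassica carinata, an allotetraploid mustard that joins the B genome of B. nigra with the C genome of B. oleracea. The genes described are all those with an ID beginning BcaC03g and 10 or more counts in at least 3 of the 12 libraries. There are 2586 of them, out of 5637 C03 gene IDs and out of 52201 genes of any chromosome that meet the same minimum. RNA-seq was done on anthers of synthetic B. carinata in 4 groups of 3 libraries each. BCMe and BCMi are haploid plants with 1 B and 1 C set, whose seed parent was B. oleracea var. alboglabra and whose pollen parent was B. nigra, at meiosis (sporogenesis, young anthers) and at mitosis (gametogenesis, anthers). BBCCMe and BBCCMi are tetraploid plants of the same cross, obtained with ovule culture and colchicine, at the same stages. The labels do not say how many plants or lines stand behind a group, so a p-value here covers the spread among these libraries, possibly a technical one. C03 was taken up because its genes were already known from these data to stand higher in the haploid, so the ploidy values below are a description. Counts of members called in the ploidy comparisons are given on the same terms and support nothing about C03 by themselves. The changes between stages were not used in that choice. The interaction is the difference between the ploidy values of the stages. Shares of the chromosome's output compare the same haploid and tetraploid counts. Neither is thus independent of the choice.

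In an allopolyploid each gene of one subgenome commonly has a counterpart in the other, and the haploid carries every chromosome once where the regular tetraploid carries each as a pair. Newly made Brassica polyploids are known for gains, losses and exchanges of chromosomes, and RNA from a chromosome often moves with its copy number. Anthers hold the meiotic cells and the pollen that forms from them together with the tapetum and wall, and pollen turns on a large set of late genes. DNA copy number was not measured in these files. Gene names are not paired with the IDs in these files, so genes are given by ID, their functions are not given, and the tissue could not be checked against anther markers. Bulk anther RNA cannot tell fewer cells of a type from less RNA per cell.

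Libraries held between 15769687 and 16793767 counts, and 1617 members reached 10 counts in all 12 libraries. Members held 99.63% of all C03 counts. Of the remaining 3051 C03 IDs, 1555 had no count in any library. The 55 members just inside the limit, whose third-highest count was 10, had a median count of 5.0 per library, and the 51 genes just outside, at a third-highest count of 9, had a median of 4.0. The minimum was reached in haploid libraries only by 80 members (3.09%) and in tetraploid libraries only by 32 (1.24%). On the other 8 C chromosomes these shares were 0.603% and 2.86%.

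Seen by level rather than by fold change, it was the tetraploid in which C03 stood apart from the other C chromosomes; this view was added after the values had been seen. Levels are FPKM, read counts scaled to gene length and library size by the authors, so chromosomes can be compared within a library. The median C03 member stood at 5.07, 5.29 and 5.01 FPKM in the 3 BCMe libraries, against 2.74, 2.76 and 2.64 FPKM in the BBCCMe libraries. At mitosis the medians were 4.87, 4.95 and 4.87 FPKM in BCMi, against 2.81, 2.87 and 2.79 FPKM in BBCCMi. The groups did not overlap at either stage. Genes of the other 8 C chromosomes had chromosome medians between 4.69 and 5.71 FPKM in BCMe and between 4.63 and 5.55 FPKM in BBCCMe, and between 4.43 and 5.11 FPKM in BCMi and between 4.86 and 5.56 FPKM in BBCCMi.

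In all 6 haploid libraries the C03 median therefore lay within the range of the other C chromosomes of the same library, and in all 6 tetraploid libraries it was the lowest of the 9. The C03 median over that of the pooled other C genes was 0.974 ± 0.0312 in BCMe and 0.532 ± 0.0118 in BBCCMe, and 1.01 ± 0.0115 in BCMi and 0.542 ± 0.00624 in BBCCMi (SD, n = 3 each). Members over 100 FPKM numbered 101 in BCMe and 59 in BBCCMe, and 88 in BCMi and 39 in BBCCMi. The haploid position depends on which genes are counted. Over the 1617 members past the minimum in every library the ratios were 1.06 in BCMe and 0.612 in BBCCMe, and 1.09 in BCMi and 0.597 in BBCCMi. Over the 4082 C03 genes with at least 1 count in the table they were 0.774 in BCMe and 0.423 in BBCCMe, and 0.770 in BCMi and 0.443 in BBCCMi. In that wider set the haploid C03 median, 1.54 FPKM in BCMe and 1.51 FPKM in BCMi, lay just under the lowest other C chromosome, at 1.6 FPKM in BCMe and 1.58 FPKM in BCMi. More C03 IDs were silent throughout, with 27.6% at 0 counts in every library against 22.9% on the other C chromosomes. Fewer passed the minimum, 45.9% against 53.6%. By median CPM, which is not scaled to gene length, C03 ranked 8 of the 9 in each BCMe library and 7 in each BCMi library. Its share of all counts was the lowest of the 9 in BCMe (4.38%), BBCCMe (2.56%) and BBCCMi (2.88%), and ranked 4 in BCMi (5.63%).

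**Figure D1:**
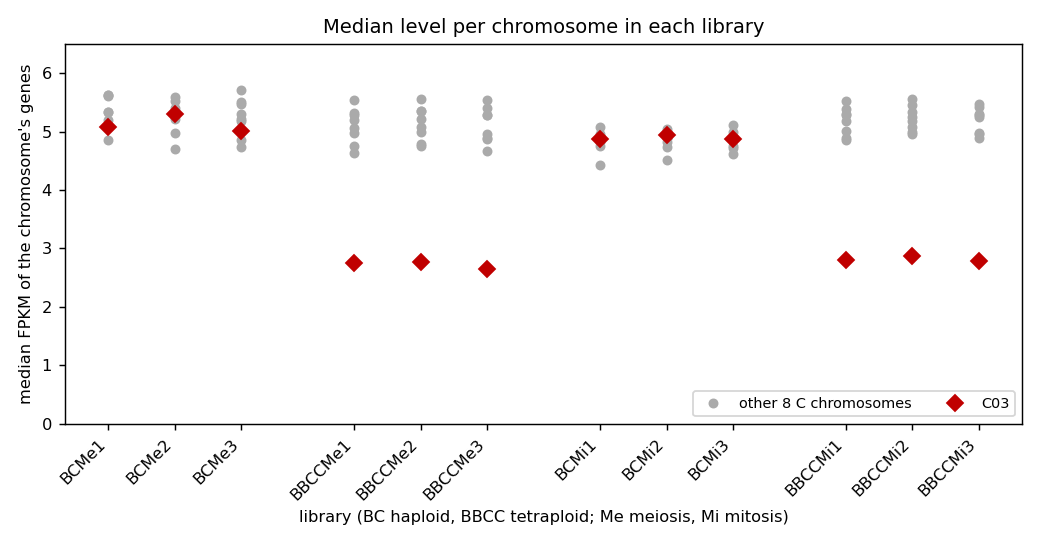
Median FPKM of the genes of each C chromosome (y axis, from 0) in each of the 12 libraries (x axis), with C03 as red diamonds and the other 8 C chromosomes as grey points. In the haploid libraries C03 lies between 4.87 and 5.29, among the other chromosomes, and in the tetraploid libraries between 2.64 and 2.87, below all of them.

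Per gene, the haploid-to-tetraploid difference was a broad shift of most members. Differences are log2 fold changes, haploid over tetraploid, after scaling that sets the bulk of all genes near 0, so they are relative to the rest of the transcriptome. Calls are adjusted p-values under 0.05 from edgeR (quasi-likelihood test, Benjamini-Hochberg over the 52201 genes). At meiosis the median member stood at 0.84 (interquartile range 0.41 to 1.26), or 1.79-fold, with 1636 members called higher and 54 lower. Over all genes tested 19.3% were called higher and 18.7% lower. At mitosis the median was 0.90 (interquartile range 0.43 to 1.29), or 1.86-fold, with 1693 members called higher and 166 lower, where all genes gave 23.2% higher and 24.4% lower. Chromosome medians elsewhere in the C subgenome lay between -0.03 and 0.00 at meiosis and between -0.03 and 0.03 at mitosis.

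Each haploid library showed the shift against the shared mean of the tetraploid libraries of its stage, again as a description. The median log2 ratio of C03 members to the mean of the tetraploid libraries of the stage (0.5 CPM added) was 0.66, 0.65 and 0.66 in the BCMe libraries and 0.71, 0.73 and 0.72 in the BCMi libraries. In the same libraries the other 8 C chromosomes had medians from -0.04 to 0.00 and from -0.04 to 0.02. All 6 haploid libraries had every one of 52 consecutive C03 gene runs above 0.

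Along the chromosome the higher level had no break. Members were put in order of the ID number and cut into runs of 50 (the last has 36), since the files give no coordinates. Run medians ranged from 0.53 to 1.14 at meiosis and from 0.66 to 1.14 at mitosis, while 500 runs on the other C chromosomes ranged from -0.32 to 0.25 and from -0.45 to 0.31. The lowest run at meiosis went from BcaC03g16957 to BcaC03g17044 and the highest from BcaC03g17886 to BcaC03g18025. At mitosis the lowest was the first run of the chromosome, from BcaC03g12936 to BcaC03g13019, and the highest went from BcaC03g17048 to BcaC03g17147, directly after the lowest run of meiosis. Runs of 25 widened the range to between 0.40 and 1.31 at meiosis and to between 0.30 and 1.34 at mitosis, still with no run at or below 0.

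In 10 segments of the chromosome, each of 258 or 259 members and numbered in ID order, the medians lay between 0.75 and 0.98 at meiosis and between 0.78 and 0.99 at mitosis. Segment 1 had the lowest median at both stages, at 0.75 and 0.78, and segment 10 was also at 0.75 at meiosis. The largest meiosis median, 0.98, was in segment 9 and the largest mitosis median, 0.99, in segment 8. The spread between segments (SD 0.074 and 0.069 over 10) was wider than between 80 segments of the other C chromosomes (SD 0.037 and 0.051). Those are 10 per chromosome, and the chromosomes hold 2402 to 3761 genes past the minimum. Most of those segments thus hold more genes than the C03 ones, which by itself narrows the spread of medians. The difference was not tested. Run medians of both stages went partly together (Pearson's r 0.56, Spearman's rho 0.57, over 52 runs). Single genes did so less (r 0.27, rho 0.31, over 2586 members, against 0.19 and 0.23 over 25021 other C genes). Neighbouring members were nearly unrelated in their difference, with r of 0.08 at meiosis and 0.04 at mitosis, and all these points share the same libraries.

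**Figure D2:**
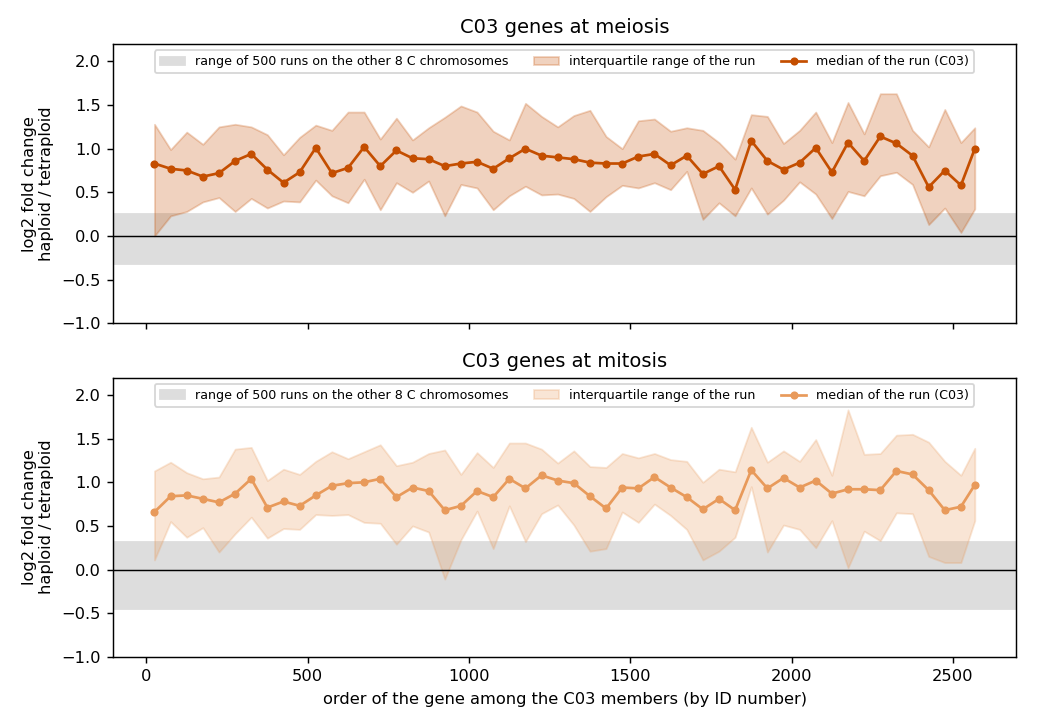
Median log2 fold change of haploid over tetraploid (y axis) in runs of 50 consecutive C03 members in order of the ID number (x axis), at meiosis (top) and mitosis (bottom), with the interquartile range of each run shaded and the range of 500 run medians of the other C chromosomes in grey. Every C03 run median, 0.53 or more at meiosis and 0.66 or more at mitosis, lies above the grey band.

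The whole distribution was moved to higher values and had wide tails on both sides. At meiosis 984 members (38.1%) had a fold of 1.6 to 2.5, 571 (22.1%) one over 2.5, 894 (34.6%) one of 0.8 to 1.6 and 137 (5.30%) one under 0.8. On the other C chromosomes 8.01% of genes fell in the class of 1.6 to 2.5 and 61.1% in that of 0.8 to 1.6. At mitosis the C03 class of 1.6 to 2.5 held 1039 members (40.2%) and the class under 0.8 held 263 (10.2%). The interquartile range at meiosis was 0.85 wide on C03 and 0.70 wide on the other C chromosomes, and at mitosis 0.86 and 0.85. Of the 984 members at 1.6 to 2.5 at meiosis, 496 were in that class at mitosis too. Both stages together, 1333 members (51.5%) were called higher at both, where 9.61% of all genes tested were, and 23 were called lower at both, where 7.95% of all genes were.

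**Figure D3:**
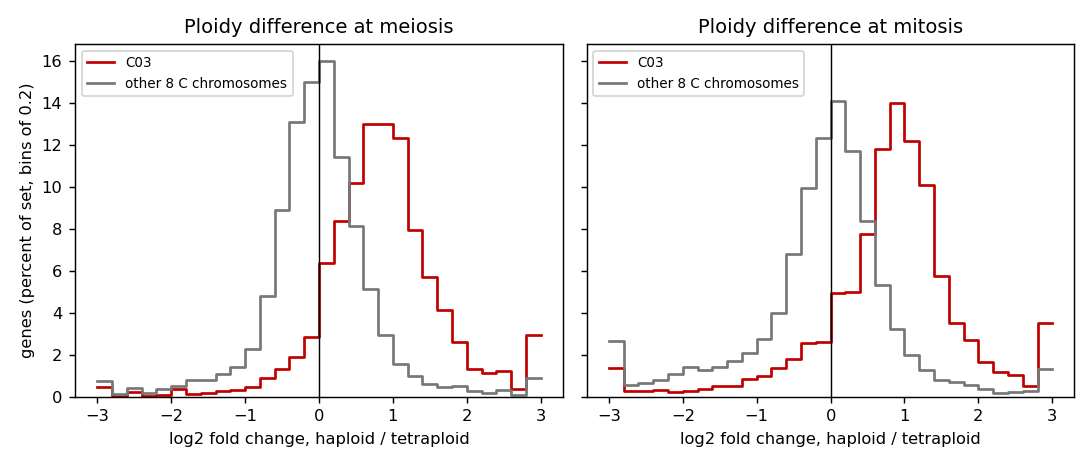
Share of genes (y axis, percent of the set) by log2 fold change of haploid over tetraploid (x axis, bins of 0.2), for C03 members in red and genes of the other 8 C chromosomes in grey, at meiosis (left) and mitosis (right). The C03 hump lies around its medians of 0.84 and 0.90 and the grey one around 0, and the outermost bins also hold all genes beyond them.

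Members that did not share the higher level lay in many places along the chromosome, and their number and spread depend on how they are counted. Of the 2586 members, 590 (22.8%) were called higher at neither stage, 439 of which (16.98% of members) were called in neither direction at either stage. On the other C chromosomes 69.1% of genes were called higher at neither stage. By a narrower measure, a log2 fold change below 0.25 at both stages was found for 221 members (8.55%), against 50.1% of genes on the other C chromosomes. These 221 formed 193 stretches in the gene order, of which 170 were single genes and 20 were pairs. The longest held 5 members, from BcaC03g17317 to BcaC03g17323. Its first gene, BcaC03g17317, averaged 0.508 CPM in BCMi and 6.44 CPM in BBCCMi, and the other 4 averaged under 6 CPM in every group. On its flanks, BcaC03g17315 stood at 0.42 at meiosis and 0.20 at mitosis and BcaC03g17332 at 0.77 and 1.29. In the other direction, the longest stretch with every member above 0 at both stages held 28 members, from BcaC03g13036 to BcaC03g13090. Members called lower in the haploid at mitosis were less evenly spread. Segment 9 held 31 of these 166 members, and each other segment held 10 to 19. Within segment 9, the run from BcaC03g17693 to BcaC03g17772 had 11 of its 50 members called lower. This unevenness was not tested.

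Members outside the shift were more often genes that rose steeply towards mitosis. This is a description with no test, in part built in by the fit of silent genes and by how the groups were cut. To class genes by stage without using the ploidy difference, the log2 change from meiosis to mitosis was averaged over both forms. By this measure 195 members (7.54%) rose more than 16-fold, 91 fell more than 16-fold and 1549 (59.9%) stayed within 2-fold. On the other C chromosomes 6.30% of genes rose more than 16-fold. Of the 221 members below 0.25 at both stages, 70 (31.7%) were such risers, against 7.30% of the other C genes under the same limit. That limit takes in 8.55% of C03 members but 50.1% of other C genes, so the latter are not a matched reference. Of the 590 members called higher at neither stage, 109 (18.5%) were risers, against 7.27% on the other C chromosomes. Among the 166 members called lower in the haploid at mitosis the count was 68 (41.0%), against 17.8% on the other C chromosomes, where the share was thus also above that of all genes of the set. Among the 1333 members higher at both stages 33 (2.48%) were risers, against 5.28% on the other C chromosomes. Of the 23 members called lower at both stages, 2 were such risers and 13 stayed within 2-fold. A gene with 0 counts in every meiosis library, such as BcaC03g17707, has a fitted meiosis difference of 0.00 and cannot be called higher there. The lower quartile of the meiosis difference among C03 risers was 0.00. Part of the shares above is therefore fixed by the fit. The groups set by calls are not matched either. Called lower at mitosis were 6.42% of C03 members and 24.8% of other C genes. Called higher at neither stage were 22.8% and 69.1%, and at both stages 51.5% and 7.34%. Risers also stood lowest at mitosis on the other C chromosomes, at a median of -1.82. A uniform shift of C03 would thus by itself leave a larger share of risers among members outside it. How large these parts are was not tested.

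Within stage classes C03 kept a distance from the other C chromosomes, but not the same one. Among members within 2-fold between stages the median ploidy difference was 0.81 at meiosis and 0.91 at mitosis, and other C genes of the class stood at -0.02 and 0.03. Members that rose more than 16-fold had a median of 0.48 at meiosis and -0.15 at mitosis, where the 1577 other C genes of the class were at 0.00 and -1.82. The distance at mitosis was thus 1.67 in this class and 0.88 in the class within 2-fold, and whether these distances differ was not tested. Of the 195 C03 risers, 75 were called higher in the haploid at mitosis and 68 lower, and on the other C chromosomes 14.0% of risers were higher and 69.9% lower. Members that fell more than 16-fold had a median of 1.10 at meiosis and 2.45 at mitosis, against -0.11 and 1.15 on the other C chromosomes. Both outer classes hold genes near 0 counts at one stage, whose fitted fold changes depend on the prior count.

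Expression level made little difference to that distance. C03 members averaging over 64 CPM at meiosis had a median of 0.61, lower than the 0.88 of members under 1 CPM, but the most abundant other C genes were also lower, at -0.21. The distance from C03 to the other C chromosomes ran from 0.82 to 0.88 over 5 level classes at meiosis and from 0.88 to 0.91 at mitosis.

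**Figure D4:**
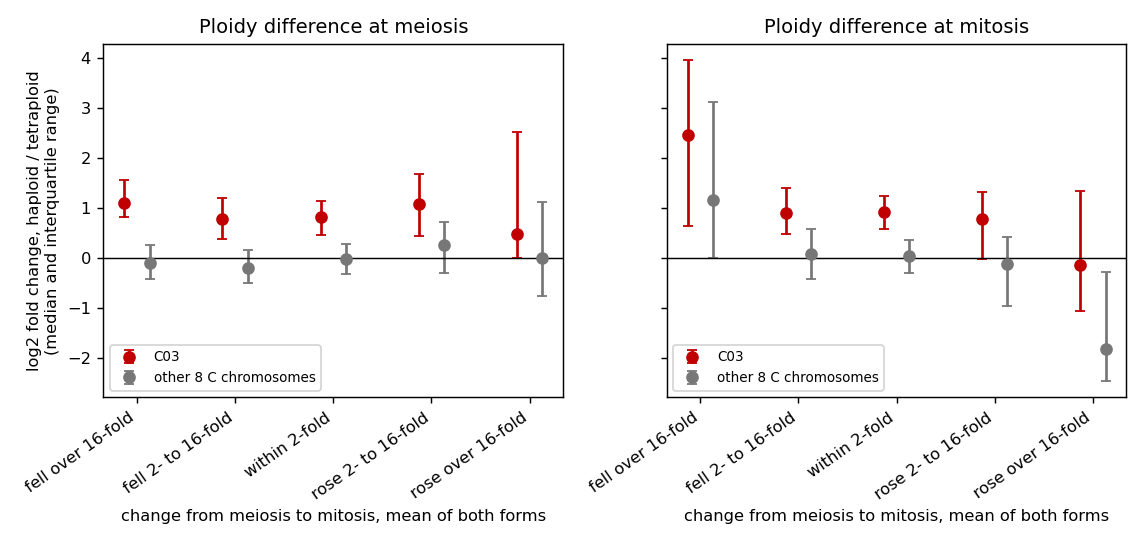
Median (points) and interquartile range (bars) of the log2 fold change of haploid over tetraploid (y axis) at meiosis (left) and mitosis (right), for genes grouped by their change from meiosis to mitosis averaged over both forms (x axis), with C03 in red and the other 8 C chromosomes in grey. At mitosis the risers over 16-fold are at -0.15 on C03 and at -1.82 on the other C chromosomes, and genes within 2-fold at 0.91 and 0.03.

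Single members show how far genes departed from the shift. Superlatives here and below hold among called members, ranked by fitted log2 fold change. These had to reach 10 CPM in the higher of the groups compared, without overlap between their libraries. At meiosis the largest difference was in BcaC03g17637, with 10.2, 13 and 10.9 CPM in BCMe and 0 counts in all 3 BBCCMe libraries, at least 66.6-fold higher against a floor of 3 counts per library. BcaC03g14893 had 64.5, 59.1 and 68.1 CPM in BCMe, against 0.782, 0.334 and 0.532 CPM in BBCCMe, a ratio of 116. Both genes were high at mitosis, at 725 ± 20.2 CPM in BCMi and 62.5 ± 7.11 CPM in BBCCMi for BcaC03g17637, and at 774 ± 35.2 CPM in BCMi and 224 ± 10.8 CPM in BBCCMi for BcaC03g14893 (SD, n = 3 each). Both are thus genes of the mitosis stage whose reads at meiosis stood almost wholly in the haploid.

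Going against the chromosome at meiosis, BcaC03g15997 had 8.06, 6.84 and 5.96 CPM in BCMe, against 27.5, 26.9 and 22.6 CPM in BBCCMe (log2 fold change -1.88, SE 0.12). BcaC03g13746 had 11.8, 7.01 and 8.48 CPM in BCMe, against 29.8, 33.5 and 33.0 CPM in BBCCMe (-1.82, SE 0.13). At mitosis the difference was smaller in both genes, at -0.54 (SE 0.12) and -0.25 (SE 0.16).

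At mitosis the largest difference was in BcaC03g14562, with 14.6, 15.2 and 15.8 CPM in BCMi, against 0.129, 0.332 and 0.129 CPM in BBCCMi, where it rests on 9 counts. This gene was at 152 ± 6.04 CPM in BCMe and 29.9 ± 0.598 CPM in BBCCMe, so its haploid excess was also present at meiosis (log2 fold change 2.34, SE 0.06). BcaC03g17514 had 29.7, 27.8 and 27.3 CPM in BCMi, against 0.905, 1.13 and 1.10 CPM in BBCCMi, a ratio of 27.1.

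Of the members lower in the haploid at mitosis, BcaC03g17707 had 0.327, 0.406 and 0.456 CPM in BCMi, against 22.9, 21.4 and 23.2 CPM in BBCCMi (log2 fold change -5.80, SE 0.24). BcaC03g13320 had 0.719, 0.474 and 0.521 CPM in BCMi, against 24.2, 25.1 and 21.7 CPM in BBCCMi (-5.35, SE 0.23). Both genes had 0 counts in all 6 meiosis libraries, so their reads are confined to mitosis in these data and stand almost wholly in the tetraploid. Homoeologous and other near-identical copies may share reads with any of these genes, and the sources used here do not give how such reads were counted.

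The members with the highest mean CPM, which is not scaled to gene length, were BcaC03g14767 and BcaC03g18527. BcaC03g14767 had 1440, 1474 and 1247 CPM in BCMe, against 557, 519 and 521 CPM in BBCCMe. At mitosis it had 3568, 3868 and 3998 CPM in BCMi, against 1645, 1762 and 1689 CPM in BBCCMi. Its difference was 1.38 (SE 0.05) at meiosis and 1.17 (SE 0.05) at mitosis, above the chromosome's median at both stages. BcaC03g18527 had 91.0, 92.9 and 90.7 CPM in BCMe, against 3.91, 5.51 and 5.79 CPM in BBCCMe, and 3288, 3400 and 3322 CPM in BCMi, against 633, 624 and 631 CPM in BBCCMi. Per length, BcaC03g14767 stood at 10927 ± 649 FPKM in BCMi and BcaC03g18527 at 2747 ± 24.8 FPKM (SD, n = 3).

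**Figure D5:**
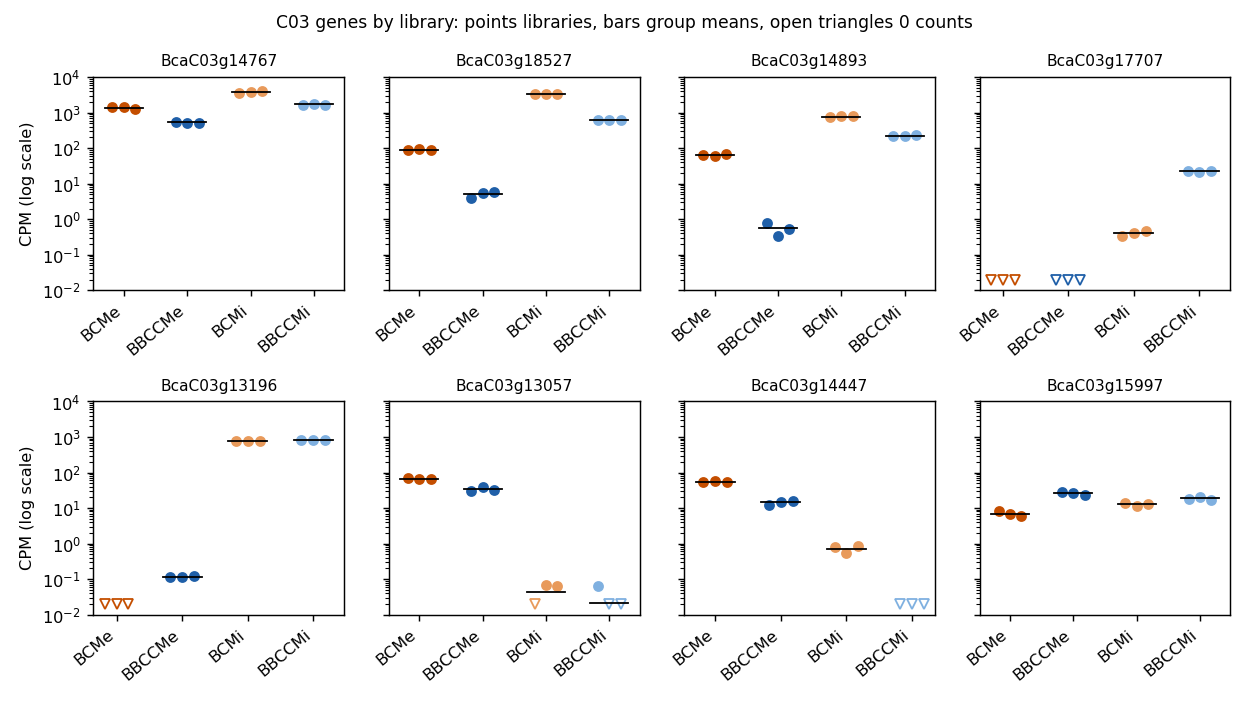
CPM of 8 C03 genes in each library (points, y axis on a log scale) by group (x axis), with bars at the group means and open triangles for libraries with 0 counts. BcaC03g14767 and BcaC03g18527 are higher in the haploid at both stages, BcaC03g15997 is lower in it, and BcaC03g17707 is found at mitosis only and mostly in BBCCMi.

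Between stages the shares of C03 members called were near those of all genes. In the haploid 878 members (34.0%) were called higher at mitosis than at meiosis and 740 (28.6%) lower, where all genes gave 33.2% higher and 30.3% lower. In the tetraploid 891 members (34.5%) were higher and 856 (33.1%) lower, where all genes gave 37.1% and 34.6%. The median change was 0.06 for haploid and 0.00 for tetraploid libraries, and the medians of the other C chromosomes lay between -0.01 and 0.08 in the haploid and between -0.03 and 0.08 in the tetraploid. The larger side turned with the deposited FPKM values (limma-trend, pseudocount 1), to 724 members higher and 993 lower for the haploid, and to 765 and 1002 for the tetraploid. These values also moved the median of all genes to -0.14 in the haploid and -0.11 in the tetraploid.

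In the haploid the steepest rise was in BcaC03g13196, with 789, 764 and 771 CPM in BCMi and 0 counts in BCMe, at least 4501-fold against a floor of 3 counts per library (adjusted p = 3.18e-41, edgeR). In the tetraploid it stood at 818 ± 19.2 CPM in BBCCMi and 0.114 ± 0.00384 CPM in BBCCMe, so it is a late C03 gene without the haploid excess at mitosis (log2 fold change -0.08, SE 0.04). BcaC03g14652 rose to 154, 166 and 157 CPM in BCMi, against 0 counts in BCMe, at least 923-fold (adjusted p = 8.28e-34, edgeR). In the tetraploid it reached 62.0 ± 2.86 CPM in BBCCMi.

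The steepest falls in the haploid were in genes that were also lower at mitosis in the tetraploid. BcaC03g13057 had 0, 0.0677 and 0.0651 CPM in BCMi, against 70.1, 65.3 and 65.5 CPM in BCMe. The 2 counts left give a ratio of 1521 (exact 95% binomial counting interval 421 to 12566, adjusted p = 3.77e-29, edgeR). In the tetraploid it stood at 0.0215 ± 0.0373 CPM in BBCCMi and 34.4 ± 4.61 CPM in BBCCMe. BcaC03g18218 had 1 count in all of BCMi, against 15.4, 12.3 and 13.3 CPM in BCMe (ratio 621, exact 95% binomial counting interval 111 to 24562, adjusted p = 2.93e-19, edgeR).

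In the tetraploid BcaC03g17632 rose most, with 136, 146 and 138 CPM in BBCCMi and 0 counts in BBCCMe, at least 819-fold (adjusted p = 7.19e-32, edgeR). In the haploid it reached 60.0, 56.9 and 60.1 CPM in BCMi, below all BBCCMi libraries. BcaC03g17532 had 124, 131 and 130 CPM in BBCCMi and 0 counts in BBCCMe, at least 751-fold (adjusted p = 1.13e-32, edgeR), and 80.5 ± 3.21 CPM in BCMi. BcaC03g15532 fell to 0 counts in BBCCMi, against 46.2, 45.1 and 49.1 CPM in BBCCMe, at least 239-fold lower (adjusted p = 1.44e-27, edgeR). BcaC03g14447 fell to 0 counts in BBCCMi, against 12.5, 15.0 and 15.7 CPM in BBCCMe, at least 73.6-fold lower (adjusted p = 4.94e-22, edgeR). In the haploid a remainder was counted at mitosis, 0.288 ± 0.108 CPM for BcaC03g15532 and 0.724 ± 0.161 CPM for BcaC03g14447 in BCMi.

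The interaction of ploidy and stage asks whether a member's ploidy difference was the same at both stages. It was called for 681 members. In 379 of them (14.7%) the haploid gained on the tetraploid at mitosis relative to meiosis, and in 302 (11.7%) it lost, where all genes gave 15.5% and 14.9%. The other 1905 members were not called. The median interaction of C03 was 0.04, and the other C chromosomes lay between 0.00 and 0.03. The larger side turned with FPKM and limma-trend at a pseudocount of 1 (400 positive, 453 negative) and at 0.1 (351 and 361), and with a 2-fold minimum (158 and 171).

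BcaC03g15351 had a more positive difference at mitosis, with 1.24, 0.881 and 0.781 CPM in BCMi and 0 counts in BBCCMi, and 15.4 ± 1.85 CPM in BCMe and 8.60 ± 0.940 CPM in BBCCMe (adjusted p = 1.1e-05, edgeR). BcaC03g13197 had 13.1, 15.1 and 18.2 CPM in BCMi, against 7.88, 7.96 and 8.41 CPM in BBCCMi. At meiosis it had 0 counts in BCMe and 0.0963 ± 0.0702 CPM in BBCCMe (adjusted p = 0.0104, edgeR), and this call was lost without BBCCMe replicate 3 (adjusted p = 0.0713, edgeR). BcaC03g14485 was lower in the haploid at mitosis, with 2.22, 3.39 and 2.99 CPM in BCMi, against 17.7, 16.6 and 18.8 CPM in BBCCMi. At meiosis it had 0.153 ± 0.165 CPM in BCMe, against 0 counts in BBCCMe (interaction, adjusted p = 8.29e-05, edgeR). The BCMe counts were 6, 1 and 1, so the turn in direction rests on few counts, mostly of 1 library. BcaC03g17637, described above, had a smaller excess at mitosis than at meiosis (adjusted p = 3.58e-09, edgeR).

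How the chromosome's output was divided among its genes was measured within C03, so that a uniform shift of the chromosome cancels. The 10 most abundant members of a library took 12.1%, 12.5% and 11.8% of C03 counts in BCMe, against 9.46%, 9.35% and 9.28% in BBCCMe. At mitosis they took 29.3%, 29.8% and 30.1% in BCMi, against 25.2%, 25.8% and 25.3% in BBCCMi. Haploid libraries were above tetraploid ones at both stages, by 3.56 percentage points on average (exact permutation test, two-sided, 400 arrangements of ploidy inside each stage, p = 0.005, which is the lowest it can give). Mitosis libraries were above meiosis ones in both forms, by 16.8 percentage points on average (same kind of exact permutation test with stage permuted inside each form, p = 0.005). On the other 8 C chromosomes pooled, the top 10 genes took 5.36%, 3.97%, 7.78% and 5.90% in BCMe, BBCCMe, BCMi and BBCCMi. These are 10 of 25021 genes, against 10 of 2586 on C03, so the sizes of the shares cannot be compared. Both directions were the same there, by 1.64 percentage points for ploidy and 2.17 for stage (same exact permutation tests, p = 0.005 each). With the top 50 the haploid excess on C03 was 0.566 points at meiosis and 7.11 at mitosis. On the other C chromosomes it was 2.73 and 2.64. The 195 risers together took 31.7% ± 0.175 of C03 counts in BCMi and 28.0% ± 0.341 in BBCCMi, against 1.02% ± 0.0157 in BCMe and 0.157% ± 0.00737 in BBCCMe (SD, n = 3 each). The 1577 risers of the other C chromosomes took 20.5% of those chromosomes' counts in BCMi and 23.6% in BBCCMi, so at mitosis the haploid share was the higher one on C03 and the lower one there, a difference that was not tested.

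Parts of the chromosome contributed unequally to the haploid's C03 output. The share of C03 counts from segment 4 was 12.2% ± 0.276 in BCMe and 10.1% ± 0.0538 in BBCCMe, and 16.2% ± 0.374 in BCMi and 14.3% ± 0.154 in BBCCMi. Segment 10 gave 8.65% ± 0.0391 in BCMe and 8.39% ± 0.0845 in BBCCMe, and 16.2% ± 0.00717 in BCMi and 12.3% ± 0.0774 in BBCCMi. Segment 1 went the other way, with 10.1% ± 0.0758 in BCMe and 11.3% ± 0.0710 in BBCCMe, and 7.39% ± 0.109 in BCMi and 10.7% ± 0.2 in BBCCMi (SD, n = 3 each).

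Of the 10 segments, 9 had a share that differed between the forms (exact permutation p = 0.005 each, adjusted p = 0.00556 over 10 segments). The smallest of these differences was -0.204 percentage points, in segment 6. Segments of the other C chromosomes were not put through this test, so whether such differences are particular to C03 is not known. For segment 9 the test gave p = 0.1 (exact permutation), and its share was higher in the haploid at meiosis and lower at mitosis. The shares add up to the whole, so a gain in any segment lowers the others. Single genes weigh heavily in them. BcaC03g14767 alone held 38.6% of the counts of segment 4 in BCMi and 39.2% in BBCCMi, BcaC03g18527 held 34.0% and 16.99% of those of segment 10, and BcaC03g13196, the late gene without the excess, held 17.3% and 25.4% of those of segment 1. Without the 10 members of highest mean CPM the differences of haploid minus tetraploid were 1.23 percentage points in segment 4, 0.751 in segment 10 and -1.50 in segment 1, each in the same direction, against 1.99, 2.08 and -2.27 with them. Of the 10 segments, 8 then passed the threshold. Segment 3 (-0.14, adjusted p = 0.144) and segment 6 (0.0683, turned in direction, adjusted p = 0.145) no longer did, and segment 9 now did (0.784, adjusted p = 0.00625), by the same exact permutation test.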

How the data were processed

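The data are RNA-seq of synthetic Brassica carinata, in 12 libraries grouped by their titles. The labels name anthers, and the extraction protocol floral buds. The deposited counts are raw whole-number reads per gene, judging from the values. The deposited FPKM are the authors' values for the same 97149 genes, made with a tool the sources used here do not name. The submitters' processing notes list featureCounts 2.0.1, HISAT2 2.1.0, TopHat2 and Bowtie2 2.2.3 without roles. Build, annotation, strandedness and handling of reads shared between copies: not given in the sources used here.

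Genes with 10 or more counts in at least 3 libraries were fitted in edgeR 4.0.16 (R 4.3.3) in 1 model of the 4 groups, with TMM factors that also scale CPM, a two-sided quasi-likelihood test and Benjamini-Hochberg adjustment. SE is the absolute log2 fold change over root F. The fit was checked on simulated data with changes in a small set of well-counted genes. A shift of a whole chromosome and changes in nearly silent genes were not simulated. Shares within C03 went through exact permutation tests, for which 3 libraries against 3 cannot go below p = 0.1. Alternatives were median-of-ratios factors, TMM without C03, DESeq2 1.42.0, no filter, a 2-fold minimum, FPKM in limma 3.58.1, a replicate block, separate fits and each library left out. Floors and intervals cover counting error only, because PCR copies are not independent molecules. Replicates differed beyond sampling noise (mean chi-square per gene 2.52 to 3.08).

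Named genes are the 2 most abundant members, ends of runs and stretches, and per comparison up to 2 higher and 2 lower called members. The called members were those of largest fitted log2 fold change that reached 10 CPM in the higher of the groups compared. Their libraries do not overlap (for the interaction, haploid and tetraploid at 1 stage or both). C03, its members, classes and lists were chosen with earlier results of these data known. Lists for meiosis, tapetum and pollen were not run and no sequence is printed, since the IDs carry no names and a reference was not used here.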

Additional observations from a re-analysis of the deposited data

Results flagged for a closer look

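For 14 of the genes named above the ploidy difference itself differed between stages (interaction, mitosis minus meiosis, log2 scale, adjusted p under 0.05, edgeR). BcaC03g15351, BcaC03g13197, BcaC03g14485 and BcaC03g17637 were named for a called interaction, so their calls were fixed in advance. The others were named for a large difference in another comparison or for abundance. The count of 14 therefore says nothing about C03. Over all genes tested 15.5% were called positive and 14.9% negative. It was more positive at mitosis for BcaC03g15997 (1.34), BcaC03g13746 (1.57), BcaC03g14562 (3.89) and BcaC03g17514 (1.97). The same direction was found for BcaC03g13196 (3.91), BcaC03g15532 (4.37), BcaC03g14447 (4.64), BcaC03g15351 (6.16) and BcaC03g13197 (4.68), each of which had a group with 0 counts, so that its size rests partly on the prior count. It was more negative at mitosis for BcaC03g14893 (-5.05), BcaC03g18527 (-1.77) and BcaC03g14767 (-0.22), and for BcaC03g17637 (-7.00) and BcaC03g14485 (-7.02), which had 0 counts in BBCCMe.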

How the results depend on the processing

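The higher C03 level in the haploid kept its direction under every alternative run. With median-of-ratios factors the C03 median log2 fold change was 0.83 at meiosis and 0.86 at mitosis, with TMM factors computed without C03 genes 0.87 and 0.92, with no filter on low counts 0.78 and 0.78, with FPKM and limma-trend 0.59 and 0.58 at a pseudocount of 1 and 0.80 and 0.82 at 0.1. DESeq2 gave 0.86 at mitosis and the separate fit 0.85 at meiosis. The stage medians were near 0 throughout: in the haploid 0.06 with median-of-ratios factors, 0.06 with DESeq2, 0.00 with no filter, 0.05 in a separate fit and -0.13 and -0.18 with FPKM; in the tetraploid 0.03 with each of the first 3 of these and -0.11 and -0.16 with FPKM. The interaction median was 0.00, 0.01 and -0.01 with these 3 and -0.03 and -0.01 with FPKM; no separate fit of the interaction was run. A 2-fold minimum left 877 higher and 27 lower at meiosis, 1007 higher at mitosis, 554 higher and 393 lower between stages in the haploid, 488 lower in the tetraploid, and 158 positive and 171 negative interactions, by construction fewer. Runs of 25 members hold fewer genes and spread wider, from 0.40 to 1.31 and from 0.30 to 1.34.

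Leaving out each library in turn gave medians of 0.82 to 0.86 (meiosis), 0.88 to 0.90 (mitosis), 0.03 to 0.08 (haploid stages), 0.00 to 0.01 (tetraploid stages) and 0.01 to 0.05 (interaction). The level ratios then ran from 0.956 to 0.982 in BCMe, 0.528 to 0.539 in BBCCMe, 1 to 1.01 in BCMi and 0.539 to 0.545 in BBCCMi. With median CPM they were 0.925 in BCMe, 0.959 in BCMi and 0.526 in BBCCMi. With genes past the minimum in all libraries they were 1.06, 0.612, 1.09 and 0.597 in BCMe, BBCCMe, BCMi and BBCCMi, and with all genes of at least 1 count 0.774, 0.423, 0.770 and 0.443; the cause was not tested.

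Without the 10 most abundant members the haploid-minus-tetraploid share of segment 3 was -0.14 percentage points (exact permutation, adjusted p = 0.144), that of segment 6 turned to 0.0683 (adjusted p = 0.145, call lost) and that of segment 9 was 0.784 (adjusted p = 0.00625, call gained). With segments of equal ID span that of segment 9 turned to -0.0962. Of the single-gene results, 1 lost its call, BcaC03g13197 without BBCCMe replicate 3.

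Same-numbered libraries did not deviate together (18 pairs, correlations of -0.03 to 0.04), so the numbers were not taken to pair samples. With a replicate block 1603 members were higher and 51 lower at meiosis, 1663 and 162 at mitosis, 372 and 289 in the interaction, and the tetraploid stage median was 0.00. DESeq2's missing adjusted p-values stay missing. Counts near 0 limit the fold changes of genes silent in a group.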

Other observations

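On C03, 2 members (0.0773%) had 10 or more counts in every BCMe library and 0 counts in every BBCCMe library, and 0 members had the opposite pattern. On the other C chromosomes 11 genes (0.0440%) were found in the haploid only at meiosis and 1 in the tetraploid only. At mitosis 3 C03 members (0.116%) were found in the haploid only and 1 in the tetraploid only, against 12 (0.0480%) and 30 (0.120%) genes of the other C chromosomes. These counts are small and no test was made.

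The call turned round between stages for 38 C03 members (1.47%) that were higher in the haploid at meiosis and lower at mitosis, and for 8 (0.309%) that were lower at meiosis and higher at mitosis. Over all genes tested these shares were 2.56% and 2.81%, and on the other C chromosomes 2.65% and 2.93%.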
